A study of Drosophila melanogaster with 3 samples.

Results

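The 9 genes osa, brm, mor, Snr1, Bap60, Bap55, Bap111, Bap170 and polybromo, which encode subunits of the Drosophila SWI/SNF chromatin remodellers, were taken by name from 18358 annotated genes, of which 13986 are protein-coding. Region summits inside a gene or within 1 kb of it were assigned to the gene. Binding was mapped by chromatin immunoprecipitation and sequencing in whole prepupae of Drosophila melanogaster, males and females pooled and of unknown age, from a transgenic line that stably expresses the CG7368 protein with a GFP tag at its C terminus, and the precipitation used an antibody against GFP. The series holds 3 biological replicates of this 1 group, all from the same line. The labels name neither the promoter that drives the fusion nor the state of the untagged gene. Whole animals mix many tissues, so a region cannot be placed in a cell type.

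SWI/SNF complexes use the energy of ATP to slide or evict nucleosomes, and so open DNA to other proteins. In flies they exist in a BAP form, marked by Osa, and a PBAP form, marked by Polybromo and Bap170, around a shared core. The Brahma ATPase, the scaffold protein Moira, Snr1, Bap60, Bap55 and Bap111 belong to both forms. The complexes are best known in flies as trithorax group factors that counter Polycomb silencing of developmental genes.

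The authors' optimal list holds the 5246 peaks past the threshold of their irreproducible discovery rate procedure. Of the 9 genes, 2 had a summit in this list. Across all protein-coding genes the share with such a summit was 24.2%. The genes were osa, with 4 optimal summits, and brm, with 1. The other 7 genes had none. In the pooled list of 30000 regions 4 of the 9 genes had a summit and 5 had none. Of all protein-coding genes 50.3% had a pooled summit. No test was made of these counts, because the list of genes was proposed with results of these data known.

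**Figure D1:**
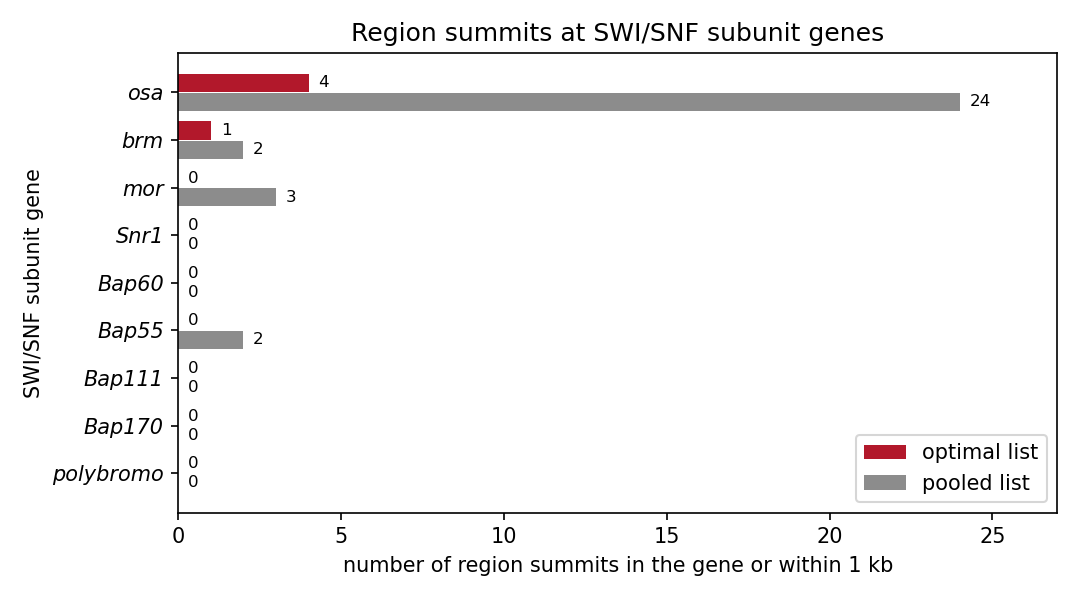
Number of region summits inside each SWI/SNF subunit gene or within 1 kb of it, in the optimal list (red) and in the pooled list (grey). The gene osa holds 4 optimal and 24 pooled summits, brm 1 and 2, mor 0 and 3 and Bap55 0 and 2, and the other 5 genes hold none.

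The 5 optimal peaks carried the result, and their summit sequences are shown for that reason, each as the plus strand of dm6 with 50 bases on either side of the summit. Both genes lie on the minus strand. Capitals mark matches on either strand to a set of words. These were the TATA box word TATAAA, the homeodomain core TAATTA, the GATA factor words AGATAAG (first form) and TGATAAG (second form), the DREF word TATCGATA, the GAGA factor repeat GAGAGAG, the repeat CACACAC, the run AAAAAAA and the E-box CAGCTG. None of the 5 windows contains annotated UTR bases. The naming rule covers the strongest window of each gene, and the other 3 osa windows were added once their values were known.
osa rank 13, chr3R:17704360-17704460: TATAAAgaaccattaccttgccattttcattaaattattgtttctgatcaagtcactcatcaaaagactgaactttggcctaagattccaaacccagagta
osa rank 272, chr3R:17703384-17703484: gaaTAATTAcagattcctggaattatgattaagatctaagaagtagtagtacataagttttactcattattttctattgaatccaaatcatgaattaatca
osa rank 425, chr3R:17700552-17700652: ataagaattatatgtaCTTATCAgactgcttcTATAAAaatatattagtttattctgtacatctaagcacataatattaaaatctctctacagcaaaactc
osa rank 2503, chr3R:17702566-17702666: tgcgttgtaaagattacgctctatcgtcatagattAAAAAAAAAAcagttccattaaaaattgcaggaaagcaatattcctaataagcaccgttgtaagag
brm rank 300, chr3L:15982956-15983056: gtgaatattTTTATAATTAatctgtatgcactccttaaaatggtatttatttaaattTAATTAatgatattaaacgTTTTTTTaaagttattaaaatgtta

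The brm window was among the richest in A and T of the whole optimal list. It held 84.2% A or T, a share reached by 24 of 5246 summit windows (0.457%), against a median of 66.3% over all of them. The osa windows at ranks 272 and 425 held 75.2% each, those at ranks 13 and 2503 held 66.3% and 67.3%. TATAAA was in 3 of the 5 windows and in 19.9% of all optimal windows. TAATTA was in 2 of 5, with 2 copies in brm, the first of which overlaps a reversed TATAAA, and in 8.39% of all. AAAAAAA was in 2 of 5 and in 14.2% of all, and TGATAAG in 1 of 5 and in 2.15% of all. The remaining words matched none of the 5 windows, and their shares over all optimal windows ran from 0.762% for the DREF word to 3.62% for the E-box. A match describes the letters in the window and not binding by a given factor.

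The gene osa (FBgn0261885) encodes the ARID-domain subunit that defines the BAP form. It lies on the minus strand of 3R at 17687818 to 17718350, over 30.5 kb. Its 4 optimal summits all fell in intron 4 of 15, counted from the 5′ end after merging the exons of all transcripts. This intron, 8.07 kb long, lies between coding exons at 17699704 to 17707770. The 4 summits span 3.81 kb, which is 11.7% of the 32.5 kb searched, and the one nearest to the osa start site is 13.9 kb away from it.

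The same intron contains a pair of long noncoding RNA genes on the plus strand, opposite to osa. They are lncRNA:CR46036 (FBgn0267703) at 17700741 to 17701873 and lncRNA:CR46035 (FBgn0267702) at 17703695 to 17705581. For all 4 osa summits the nearest transcription start site (TSS) belonged to one of these. Their place in intron 4 fixes this, since both lncRNA starts lie in it and the osa start is at least 13.9 kb from each summit. Over all optimal peaks 15.0% had a noncoding RNA start as the nearest, a comparison chosen after the osa values were seen. The 4 summits share a gene and an intron, so they are not independent cases to set against that share. The summit at rank 13 (17704238 to 17704610) lies in an exon of CR46035, 715 bp from its start. The summit at rank 272 (17703320 to 17703513) lies 261 bp upstream of that start, and the summit at rank 425 (17700411 to 17700736) lies 139 bp upstream of the start of CR46036. The fourth, at rank 2503 (17702408 to 17702823), lies in the intron 1079 bp from the start of CR46035.

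**Figure D2:**
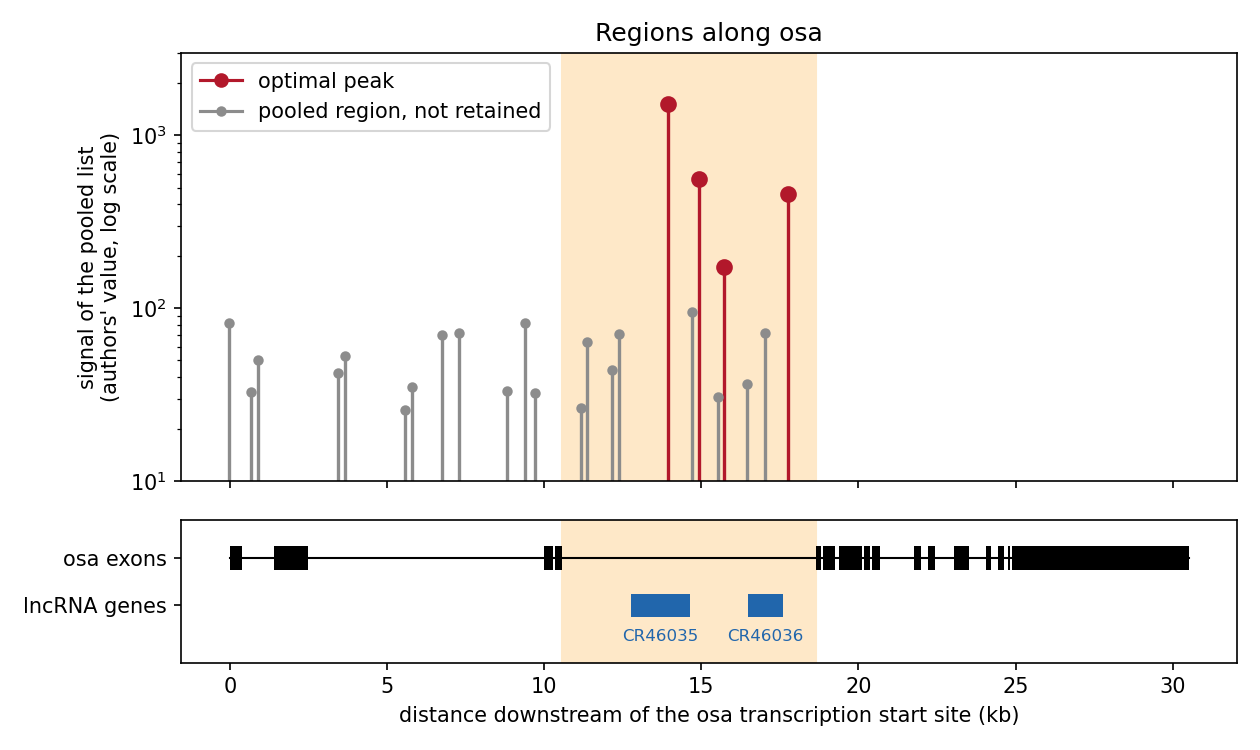
Signal of the 24 pooled regions at osa (authors' value, log scale) against the distance of their summits from the osa start site in kb, with osa exons and lncRNA genes below and intron 4 shaded. The 4 optimal peaks, in red, stand in the shaded intron with signals of 1524, 559, 460 and 174, and the highest region not retained has a signal of 94.9.

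Signals of the 4 peaks in the pooled list, which are the authors' values, were 1524, 559, 460 and 174, and the first was 2.73 times the second. The strongest ranked 12, 12 and 13 in replicates 1, 2 and 3 (12.3 ± 0.577, SD, n = 3), with summits 1, 2 and 0 bp from the pooled summit. Its signals in the replicate lists were 380, 590 and 563. All 3 replicates thus placed it near the top of 30000 regions with nearly the same summit.

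The second osa peak ranked 240, 242 and 363 in replicates 1, 2 and 3 (282 ± 70.4, SD, n = 3). The peak at CR46036 ranked 463, 422 and 361 (415 ± 51.3, SD, n = 3). Their ranges overlap, at 240 to 363 and 361 to 463. In replicate 3 their order was the reverse of that in replicates 1 and 2, but nearly a tie, with signals of 184 and 185. The region of replicate 1 at rank 240 (17703336 to 17703719) also spans a site that replicate 3 lists apart, at rank 1041 (17703533 to 17703631). The weakest optimal peak at osa ranked 3062, 2413 and 2487 (2654 ± 355, SD, n = 3), below the other 3 optimal peaks in every replicate.

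The start site of osa itself had no optimal peak. A pooled region at 17718163 to 17718578 had its summit 21 bp from it, with a signal of 81.8 and rank 7173, below the lowest optimal signal of 104. The regions with summits nearest to that of this pooled region ranked 18246, 6800 and 7623 in replicates 1, 2 and 3. In replicate 1 a further region, with its summit 92 bp from the osa start, ranked 9588. A stronger region of replicate 1 lay in intron 1, 792 bp from the osa start, at rank 2245. Replicate 2 had a region at rank 6552 in that intron, 996 bp from the start, and replicate 3 had no summit there. The pooled regions in that intron ranked 12928 and 21643. Of the 24 pooled summits at osa, 12 were in intron 4, 9 in intron 2 (7.50 kb), 2 in intron 1 and 1 at the start site. The 11.9 kb from the 3′ end of the gene to intron 4, which holds introns 5 to 15, had none. Pooled regions can overlap, so 24 is not a count of separate sites.

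Few genes had as many peaks. At least 4 optimal summits were found at 2.04% of protein-coding genes, and at 21.4% of those of 20 kb or more. The density at osa was 1.23 optimal summits per 10 kb of window, which 102 of 1021 genes of 20 kb or more (9.99%) reached, against a median of 0.284. Exactly 4 optimal summits were held by 106 genes, whose span from first to last had a median of 12.0 kb. In 8 of the 106, osa included, the span was no longer than the 3.81 kb of osa. Most like osa in count and length were if, an integrin alpha chain gene (31246 bp), dnr1, a gene of innate immune regulation (29813 bp), and aus (31302 bp), each with 4 summits, with spans of 30.3, 23.0 and 13.0 kb. Their lengths differ from that of osa by 713, 720 and 769 bp, and their strongest peaks ranked 2564, 17 and 2375.

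The gene brm (FBgn0000212) encodes the Brahma ATPase, the motor of both forms, and lies on the minus strand of 3L at 15970082 to 15982869. Its optimal peak spans 15982879 to 15983144 and stood at rank 300 of 5246, with a signal of 533. The summit at 15983006 lies between divergent starts 266 bp apart, 137 bp from that of brm and 129 bp from that of Arl1 (FBgn0000115), a small GTPase gene of the Golgi, so it cannot be assigned to either gene alone. It ranked 344, 245 and 372 in replicates 1, 2 and 3 (320 ± 66.7, SD, n = 3), with signals of 119, 232 and 183 in those lists. Replicate summits lay 11, 27 and 13 bp from the pooled one, nearer to the brm start in replicates 1 and 3 and nearer to the Arl1 start in replicate 2. This is the single optimal summit within 500 bp of the start of any of the 9 genes.

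Of the 5 optimal summits, 3 lay within 500 bp of an annotated start, that at brm and those at ranks 272 and 425 in osa, against 38.3% of all optimal peaks. All 5 peaks overlapped a region among the 5246 highest of each of the 3 replicates, against 66.1% of all optimal peaks. Since optimal peaks derive from these same replicates, this agreement is in part built in. The 5 peaks stood at ranks 13, 272, 300, 425 and 2503 by signal. The 66.1% covers all 5246 peaks down to the weakest, so these shares do not compare peaks of like signal.

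**Figure D3:**
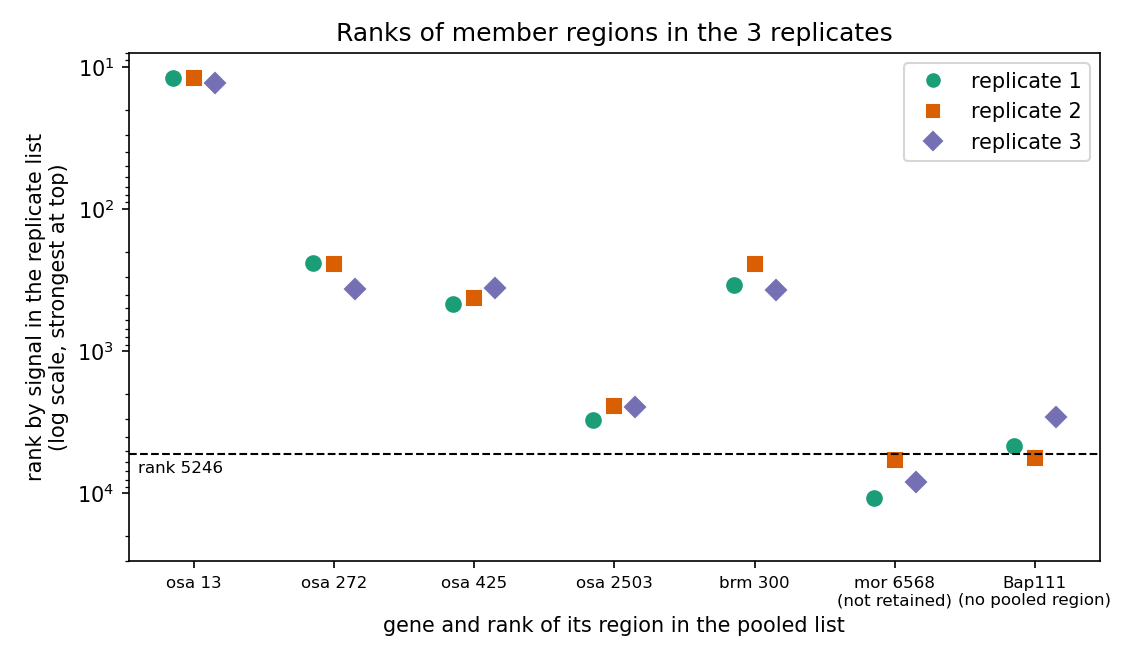
Rank by signal in each replicate list (log scale, strongest at the top) of the regions matched to the 5 optimal peaks of osa and brm, to the strongest pooled region of mor, and of the highest region at Bap111. The strongest osa peak sits at 12, 12 and 13, the 3 mor regions lie beyond the dashed line at rank 5246, and those of Bap111 lie on both sides of it.

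The gene mor (FBgn0002783), for the scaffold subunit Moira, came closest among the genes without an optimal peak by rank in the pooled list. It lies on the minus strand of 3R at 15968134 to 15972913. Its strongest pooled region, at 15973061 to 15973476, had a signal of 87.5 and rank 6568, and its summit lay 356 bp from the mor start but 29 bp from that of Hel89B, a divergent neighbour. That region ranked 10709, 5803 and 8373 in replicates 1, 2 and 3 (8295 ± 2454, SD, n = 3), outside the first 5246 in each. An optimal peak in an intron of Hel89B, at rank 2171, lay 1523 bp from mor and so just outside the 1 kb limit.

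Bap111 (FBgn0030093), for the HMG-box subunit, had regions in every replicate and none in the pooled list. It lies on the plus strand of X at 9149309 to 9151976. The highest regions ranked 4644, 5615 and 2894 in replicates 1, 2 and 3, with summits 531, 459 and 383 bp beyond the 3′ end of the gene, in the gap before the 3′ end of His3.3B, which encodes a variant histone. None of these overlapped a pooled region. Of 5010 regions among the 5246 highest of replicate 1 that had a match in both other lists, 52 (1.04%) overlapped no pooled region, the Bap111 region among them. Why the pooled list lacks them was not tested.

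A similar case lay inside brm, where regions of rank 6849 in replicate 1 and 3775 in replicate 2, near 15977751 and 15977798, overlapped no pooled region and replicate 3 had none there. The start nearest to the replicate 1 summit was that of CG17029, 718 bp away. For the replicate 2 summit it was that of CG17028, 726 bp away. The other pooled region of brm, at 15979300 to 15979715, had rank 14822 and matches at ranks 22367 and 16341 in replicates 1 and 2 only. Its summit lay 592 bp from the start of CG17027, a gene within the bounds of brm.

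Snr1 (FBgn0011715, 3R 5470926 to 5472754) and Bap60 (FBgn0025463, X 13157445 to 13159508), both core subunits, had no summit in any of the 5 lists. The nearest optimal peaks were 3825 bp from Snr1, at the start of the ribosomal protein gene RpL35A, and 14130 bp from Bap60, in an intron of CG32645. Bap55 (FBgn0025716, 2R 17429353 to 17430963), an actin-related protein gene, had pooled regions at ranks 26287 and 26890, each matched in replicate 3 alone. The summit at rank 26287 lay 5 bp from the start of the neighbour Lhr and 74 bp from that of Bap55. An optimal peak at the start of Mtap, at rank 3390, lay 1516 bp from Bap55.

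The PBAP genes were likewise without optimal peaks. Bap170 (FBgn0042085, 2R 6636512 to 6642358) had a single region, at rank 19978 in replicate 3, with a summit 37 bp from its start. The gene polybromo (FBgn0039227, 3R 24799967 to 24805259), which encodes a protein with many bromodomains, had a single region at rank 28071 in replicate 1. The summit of that region lay 648 bp outside polybromo and 258 bp from the start of the neighbour Ude. Optimal peaks lay 3118 bp from Bap170, near Fmo-2, and 5810 bp from polybromo, in an intron of lili. A further PBAP gene outside the 9, e(y)3, had no optimal and 2 pooled summits.

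In the replicates taken singly, the number of the 9 genes with a summit among the 5246 highest regions was 3, 2 and 3 in replicates 1, 2 and 3 (2.67 ± 0.577, SD, n = 3). Over all protein-coding genes the shares were 24.6%, 25.1% and 25.9%. The genes osa and brm were counted in all 3 replicates, and Bap111 in replicates 1 and 3. Regions at osa in that class numbered 5, 4 and 7 (5.33 ± 1.53, SD, n = 3), and at brm 1, 2 and 1 (1.33 ± 0.577, SD, n = 3).

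Gene length moved with these counts. The genes with optimal peaks were the longest of the 9, osa at 30.5 kb and brm at 12.8 kb, and the other 7 measured 1.61 to 5.85 kb. Of the 8 shorter than 20 kb, 1 had an optimal summit, against 21.3% of protein-coding genes of that length, and osa fell in the class of 20 kb or more, where 61.8% had one. The part of length in the counts at these genes was not tested.

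**Figure D4:**
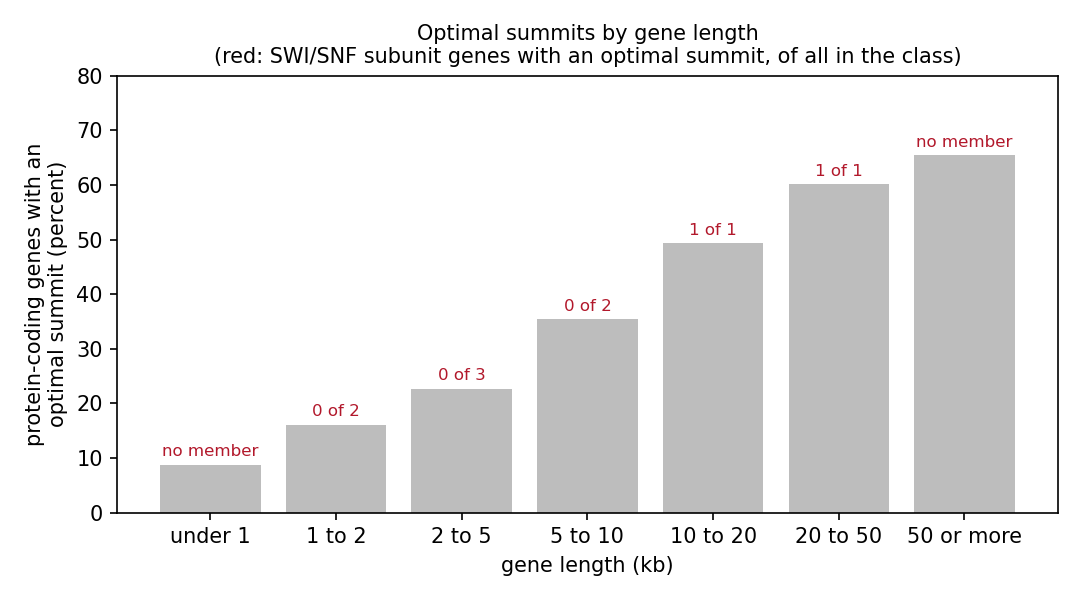
Percent of protein-coding genes with an optimal summit in the gene or within 1 kb, by gene length class in kb, with the number of SWI/SNF subunit genes that have one, of all in the class, in red. The share is 16.1%, 22.7% and 35.4% in the classes of the 7 genes without an optimal summit, 49.3% in that of brm and 60.2% in that of osa.

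Other chromatin remodeller genes, a list of 23 from the ISWI, CHD, INO80 and related classes, are set beside the 9. The list includes e(y)3, itself a PBAP gene and without an optimal summit. An optimal summit was present at 2 of 9 SWI/SNF subunit genes and at 5 of these 23, namely tou, kis, Mi-2, Ino80 and pont, which together held 19. Across all protein-coding genes the share with an optimal summit was 24.2%. Among the 23, all 4 genes of 20 kb or more had one, and 1 of the 19 shorter genes did. Of all protein-coding genes, 61.8% of those of 20 kb or more and 21.3% of the shorter ones had one. The highest count was 4 at osa among the 9 and 9 at tou, a gene of 38.6 kb, among the 23. The strongest peak had rank 13 at osa, against rank 197 at Mi-2.

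**Figure D5:**
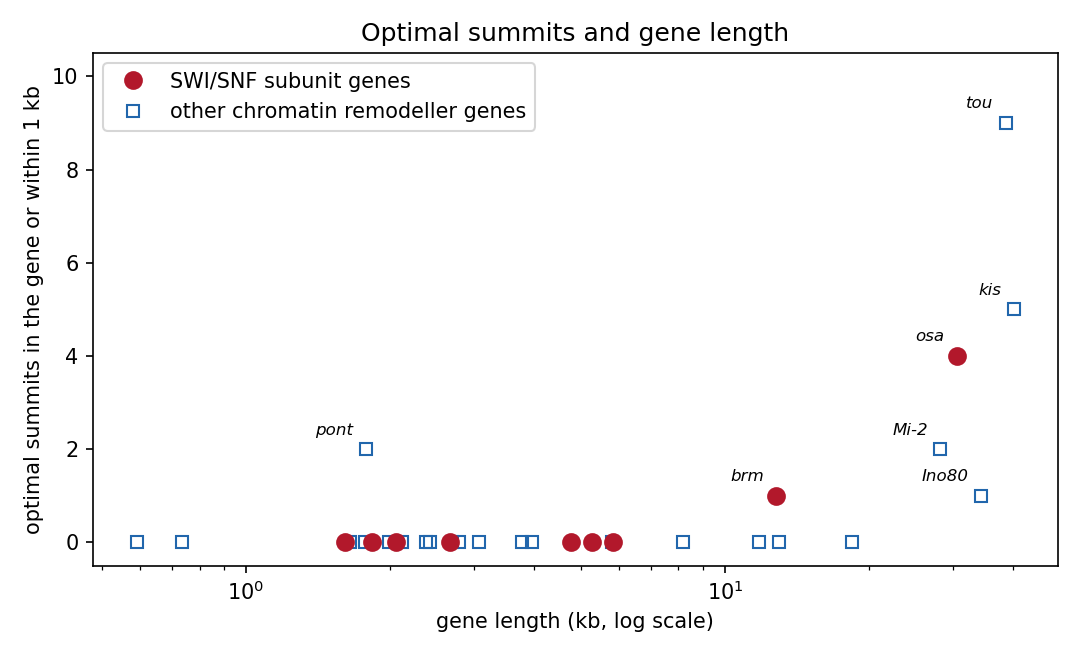
Optimal summits in the gene or within 1 kb against gene length (kb, log scale) for the 9 SWI/SNF subunit genes (filled circles) and 23 other chromatin remodeller genes (open squares). Genes with a summit are named, and all but pont are longer than 10 kb.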

How the data were processed

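The data are peak lists that the authors deposited for 3 biological replicates, in dm6 coordinates. Per the labels' protocols, chromatin was sonicated to 200 to 800 bp. Per the accompanying file descriptions, each replicate list and the pooled list hold peaks and background used as input for the irreproducible discovery rate (IDR) procedure, the pooled list derives from all 3 alignments, and the optimal list holds peaks past the IDR threshold. The signal of each region (column 7) is the value the authors deposited. For its formula, the peak caller and the aligner the sources used here give nothing. Read numbers were not among them either, so depth is unknown, and signals were used within 1 list only.

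Regions were ranked by signal with Python 3.11.15 and converted to 1-based positions. Those on the main chromosome arms all lie inside the reference of the same assembly. Genes came from Ensembl release 115, without transposable elements, and all 9 genes had the same start and end in RefSeq's table of that assembly. Summits assigned regions to genes. Replicate regions were matched by an overlap of at least 1 bp, taking the nearest summit. Counting was tested on simulated regions. Words were searched within 50 bp of summits in the RefSeq genome of that assembly.

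The genes, lists and words were chosen with earlier results of these data known, so counts are descriptions with no test. A sign-flip test of 3 replicates cannot go below 0.25. Named genes are the 9, the listed remodellers with an optimal summit, e(y)3, the genes at named summits and the 3 genes nearest to osa in count of optimal summits and then in length. Other windows, thresholds and overlaps and each replicate left out were tried. The dm3 lists were not used.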

Additional observations from a re-analysis of the deposited data

How the results depend on the processing

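Of 68 values under other settings, 47 kept close to the reported one and 21 moved. The 47 include values that could not change, as given below. A fall from 5 to 4 was counted as close. It occurred for the optimal summits with the gene body alone and for the matched peaks with 50% reciprocal overlap. The window changed how many of the 9 genes had an optimal summit: 1 (osa) with the gene body alone and 4 with 2 kb on either side, where mor and Bap55 join and the optimal summits number 8. With the pooled list in place of the optimal one, 4 genes had a pooled summit, and these pooled summits numbered 31, of which 24 were at osa. Other remodeller genes with a summit numbered 3 with the gene body alone, 8 with 2 kb and 12 with a pooled summit in place of an optimal one. The share of protein-coding genes was 12.3% with the gene body alone, 29.4% with 2 kb, 25.2% by any overlap, 15.6% with the 50% of optimal peaks of highest signal, 50.3% with pooled regions and 19.0% to 19.8% without single replicates. Promoter summits were 40% of the 5 at 250 bp and 80% at 1000 bp. No share over all optimal peaks is given at these distances, and the 38.3% at 500 bp is not a comparison for them. The number of the 9 genes among the highest regions averaged 2.00 with 2623 regions and 3.67 with 10492. No share over all protein-coding genes is given for these numbers of regions, so the rise cannot be set against the background. Leaving out a replicate filtered the optimal list by the other replicates and did not remake it, so counts could only fall. Since all 5 peaks at osa and brm match the highest regions of all 3 replicates, their counts could not change under it, and this says nothing about their stability. The same holds for their share near a start and for the number of matched peaks. All 5 peaks also rank within the first 2623, so the 50% of optimal peaks of highest signal had to include them. These fixed values are among the 47. No paired analysis was possible because the series has a single group. Unknown depth limits what a missing region can show: it was not detected, and absence of binding cannot be read from it.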

Other observations

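The strongest peaks at the other remodeller genes lay in unlike places. At kis, which encodes a CHD-class remodeller of the trithorax group, the strongest of 5 optimal peaks (rank 417, 2L 223443 to 223653) had its summit 58 bp from the start of lncRNA:CR44222 and 1615 bp from that of kis. It ranked 322, 581 and 396 in replicates 1, 2 and 3. At Mi-2, the ATPase of the NuRD complex, the stronger of 2 peaks was intronic (rank 197, 3L 19903139 to 19903410), 6955 bp from the Mi-2 start and nearest to asRNA:CR43889, and it ranked 174, 220 and 187. In Ino80 the single peak was at the gene's own start, with rank 703 and ranks 850, 797 and 639 in replicates 1, 2 and 3. In tou, which encodes a partner of ISWI-class remodellers, the strongest of 9 was intronic, 560 bp from a tou start, with rank 794. At pont, a short gene for an AAA+ ATPase, the stronger of 2 peaks was 100 bp from the start of the neighbour Nuak and 2083 bp from that of pont.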
